A study of Mus musculus with 4 samples.

Results

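The genes described here make, take up, store and export cholesterol. They are 30 genes fixed by name: 18 enzymes of cholesterol synthesis, 5 regulators of the SREBP pathway, 4 genes of intracellular transport and storage, and 3 genes of efflux or of the response to oxysterols. They stand among 46150 genes in the deposited tables, where 29 were found under their own symbol and 1, Msmo1, under its older symbol Sc4mol (the tables give symbols in upper case, as ABCA1, MYLIP and SOAT1). All 30 had a mean of at least 10 normalized counts over the 4 libraries, the minimum for a test, and 9279 genes in all reached it.

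The study compared 2 subsets of γδ T cells, T lymphocytes whose antigen receptor is made of a γ and a δ chain, from the fat around the epididymis. PLZF, encoded by Zbtb16, is a transcription factor of innate-like lymphocytes, and cells were sorted as PLZF+ or PLZF- by a GFP reporter of it. All mice were male C57Bl/6 mice with the reporter, aged 16 to 22 weeks and fed ad libitum, and no other allele or treatment is named. Each subset had 2 libraries, each from pooled fat of 10 mice, prepared by SMART-seq2, which copies whole transcripts from small cell numbers. Libraries are named by subset and column code, A6 and B6 for PLZF- and A7 and B7 for PLZF+, and values are given in that order. No label ties the codes to mice, so p-values measure the spread between these pools.

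Cells make cholesterol from acetyl-CoA through mevalonate and squalene, and the same route supplies isoprenoids. When membranes of the endoplasmic reticulum hold little sterol, Scap carries the SREBP precursors to the Golgi, where they are cut to release factors that switch on synthesis and uptake genes. Insig proteins hold Scap back when sterol is plentiful, and oxysterols then activate the LXR receptors, which switch on exporters such as Abca1 and Abcg1. Proliferating T cells are known to raise SREBP activity and to lower LXR activity.

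Estimated depth without the rRNA precursor Rn45s was 744569 and 981885 reads in A6 and B6 (PLZF-), against 1837514 and 2035080 reads in A7 and B7 (PLZF+). Zbtb16, the gene of the sort, had 310 and 699 normalized counts in the PLZF- pools, against 2899 and 2921 in the PLZF+ pools. Of 8 γδ T cell markers tested, 7 were higher in PLZF+ cells, and the list summed to 1689 and 2804 normalized counts in A6 and B6 against 9111 and 9375 in A7 and B7. All 12 tested markers of natural killer and innate lymphoid cells were lower in PLZF+ cells, summing to 5498 and 4962 against 278 and 168 normalized counts. Of 12 tested loci of dendritic cell and MHC class II markers, 6 were lower and 0 higher, with sums of 2021 and 1012 against 203 and 105. Klre1, Klra8, Gzma and Siglech of these lists were at 0 in both PLZF+ libraries. The PLZF- libraries thus held more transcripts of the natural killer, innate lymphoid, dendritic cell and MHC class II lists. Whether γδ T cells or other cells made those transcripts was not tested. Cd3e, a chain of the T cell receptor complex, was present in the PLZF- libraries at 182 and 367 normalized counts. It was higher in the PLZF+ libraries, at 552 and 661 (log2 fold change 1.22, limma adjusted p = 0.028).

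Abca1, the exporter that loads cholesterol onto apolipoprotein A-I, was the 1 gene of 30 that passed the test, and it was lower in PLZF+ cells. Over all tested genes 4.98% were called lower at an adjusted p of 0.05 (limma, Benjamini-Hochberg). None of the 30 was called higher, against 2.47% of all tested genes (7.45% in either direction), and 3 of 30 had an unadjusted p under 0.05, against 20.3%. The log2 fold change, PLZF+ minus PLZF-, was above 0 for 13 genes and below 0 for 17. Its median was -0.21, and -0.03 over all tested genes. PLZF+ values lay wholly above PLZF- values for 5 of the 30 genes (24.1% of all tested genes) and wholly below for 8 (27.2%). The share that did not overlap, 13 of 30, was not above that of all genes, 51.3%.

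The 95% intervals bound what 2 libraries a subset could show. None of the 30 lay within 2-fold in either direction, 20 lay within 4-fold and 27 within 8-fold. The half-width was 0.60 to 2.36 on the log2 scale, with a median of 1.2. Libraries of 1 subset differed from each other by a median of 0.61 (PLZF-) and 0.60 (PLZF+) on the log2 scale over the 30 genes, and by 0.56 and 0.42 over all tested genes. Estimated reads per gene had a median of 29 in A6, 42 in B6, 51.5 in A7 and 64.5 in B7. Many of the cholesterol genes were thus counted in few reads, and intervals this wide do not resolve small differences.

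**Figure D1:**
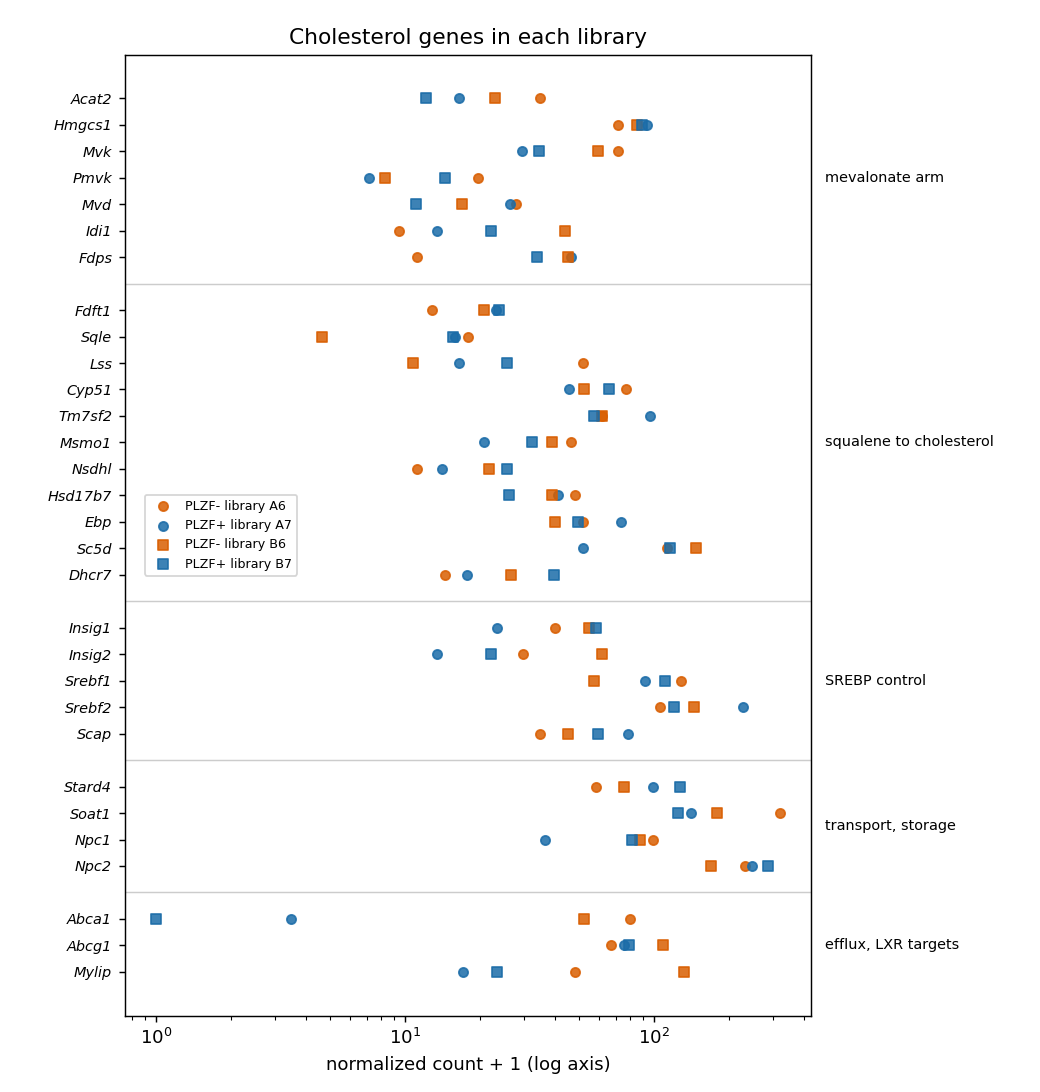
Normalized count plus 1 (log axis) of the 30 cholesterol genes in PLZF- libraries A6 and B6 and PLZF+ libraries A7 and B7, 1 point a library, ordered by role. Abca1 stands apart, with 79.3 and 51.2 normalized counts in PLZF- cells and 2.48 and 0 in PLZF+ cells.

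**Figure D2:**
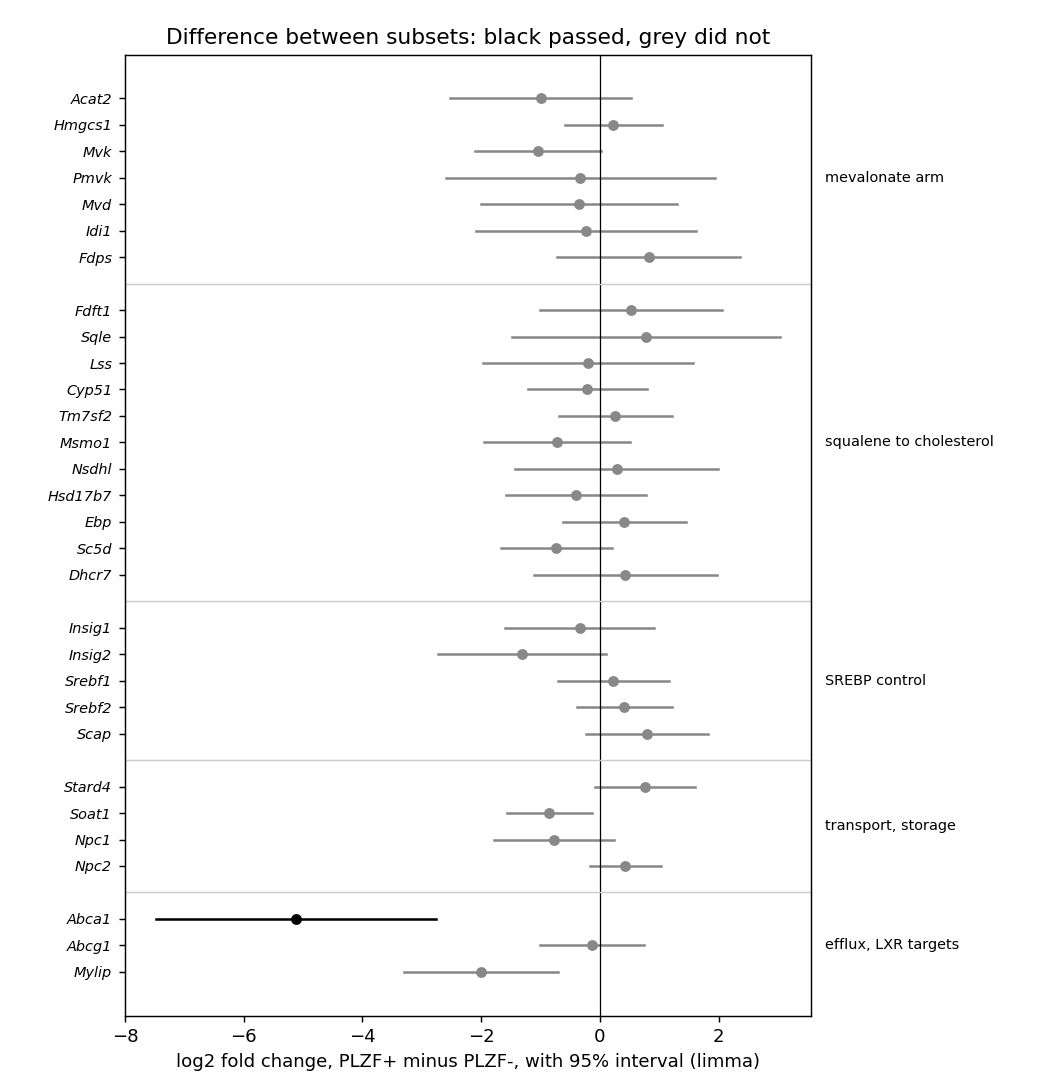
The log2 fold change, PLZF+ minus PLZF-, with its 95% interval from limma for each of the 30 genes, in the same order. The interval of Abca1, -7.48 to -2.76, is the 1 in black, which passed the adjusted threshold.

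Promoter windows were used for 24 of the 30 genes, from RefSeq on GRCm38.p6, and their 250 bases upstream of the start were searched on both strands. The rest of the 30 were left out, so whether they hold the motifs below was not tested. The shares given for cholesterol genes describe the 24 searched genes only. The sterol regulatory element TCACNCCAC, where SREBPs bind, was present in 1 of their 32 windows (3.1%), that of Hmgcs1. It was present in 1.05% of 32851 windows of all genes. CCAAT, bound by NF-Y, a partner of SREBPs, was present in 22 of 32 windows of the 24 searched genes (68.8%) and in 33.8% of all windows. A direct repeat of AGGTCA with a gap of 4 bases, the consensus form for LXR, was counted only where every letter of both repeats matched. It was present in 0 of the 32 windows, in 0.0152% of all windows and in 0% of windows of tested genes. An exact match is so rare that its absence cannot show whether a gene has an LXR site, and repeats with a mismatch were not counted. A match is a description of the letters and not a site. The windows of 3 genes are printed, each 5′ to 3′ on the strand of its gene and ending at the base before the start, with matches to these motifs in capitals. Hmgcs1 (chr13:119690101-119690350, plus strand) is shown because it alone of the 24 held the sterol element, which lies from -137 to -129, with reverse CCAAT boxes (ATTGG) at -237, -176 and -45.
Hmgcs1: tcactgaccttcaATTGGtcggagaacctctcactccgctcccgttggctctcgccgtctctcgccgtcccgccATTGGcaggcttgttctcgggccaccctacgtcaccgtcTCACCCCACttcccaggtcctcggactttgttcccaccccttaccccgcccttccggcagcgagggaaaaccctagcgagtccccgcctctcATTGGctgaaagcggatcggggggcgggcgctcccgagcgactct
Abca1 (chr4:53159896-53160145, minus strand) and Mylip (chr13:45389492-45389741, plus strand), both LXR targets, are shown because their differences between subsets had the smallest p of the 30. Abca1 had no exact match to these motifs, which says nothing of imperfect LXR repeats in its window. Mylip had reverse CCAAT boxes at -190, -108 and -67.
Abca1: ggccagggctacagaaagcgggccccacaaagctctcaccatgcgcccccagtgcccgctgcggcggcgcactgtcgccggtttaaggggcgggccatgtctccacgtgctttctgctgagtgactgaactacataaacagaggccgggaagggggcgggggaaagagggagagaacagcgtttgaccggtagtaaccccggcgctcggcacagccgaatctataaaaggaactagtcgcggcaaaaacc
Mylip: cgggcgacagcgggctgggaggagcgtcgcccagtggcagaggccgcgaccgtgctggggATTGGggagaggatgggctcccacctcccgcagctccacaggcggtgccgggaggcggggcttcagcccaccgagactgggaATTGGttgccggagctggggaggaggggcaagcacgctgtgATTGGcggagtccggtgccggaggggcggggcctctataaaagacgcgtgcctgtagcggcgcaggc

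The mevalonate arm, the 7 enzymes from acetyl-CoA to farnesyl diphosphate, had 0 of 7 called, with a median log2 fold change of -0.33. Hmgcs1, which joins acetyl-CoA and acetoacetyl-CoA and carries the sterol element printed above, had 70.9 and 84.2 normalized counts in the PLZF- pools, against 92.3 and 88.7 in the PLZF+ pools. The subsets did not overlap but lay close together, and the log2 fold change was 0.23 ± 0.38 (SE), with an interval of -0.60 to 1.05. Its adjusted p was 0.783 (limma).

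Mvk, which phosphorylates mevalonate (chr5:114444296-114460590), had the smallest p of the synthesis enzymes. It had 70.9 and 58.5 normalized counts in the PLZF- pools, against 28.5 and 33.5 in the PLZF+ pools. Both PLZF+ values were below both PLZF- values, and the log2 fold change was -1.04 ± 0.49 (SE; limma adjusted p = 0.257). Acat2, a thiolase that makes acetoacetyl-CoA, had 33.7 and 22.0 in the PLZF- pools, against 15.5 and 11.2 in the PLZF+ pools. It too did not overlap, at -1.0 ± 0.70 (limma adjusted p = 0.467). Fdps, which makes farnesyl diphosphate, had 10.1 and 43.9 in the PLZF- pools, against 45.2 and 32.9 in the PLZF+ pools. Its low value was that of A6, and the log2 fold change of 0.83 ± 0.71 did not pass (limma adjusted p = 0.562). Pmvk, Mvd and Idi1, the steps from phosphomevalonate to the isoprene units, overlapped between subsets, with log2 fold changes of -0.33, -0.35 and -0.24.

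Among the 11 enzymes from squalene to cholesterol 0 were called, and the median log2 fold change was 0.26. Sc5d, a sterol desaturase near the end of the route, had 111 and 146 normalized counts in the PLZF- pools, against 50.8 and 114 in the PLZF+ pools. A7 was the low library, the subsets overlapped, and the log2 fold change was -0.73 ± 0.43 (SE; limma adjusted p = 0.371). Msmo1, which removes methyl groups from the sterol ring, had 45.5 and 37.8 in the PLZF- pools, against 19.8 and 31.3 in the PLZF+ pools. Its subsets did not overlap, and the difference of -0.71 ± 0.57 did not pass (limma adjusted p = 0.523). Ebp, a sterol isomerase, had 50.6 and 39.0 in the PLZF- pools, against 72.5 and 48.5 in the PLZF+ pools. B7 lay between the PLZF- values, and the log2 fold change was 0.41 ± 0.48 (limma adjusted p = 0.681).

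Fdft1, which makes squalene, had 11.8 and 19.7 normalized counts in the PLZF- pools, against 22.1 and 22.9 in the PLZF+ pools, without overlap, at a log2 fold change of 0.53 ± 0.71 (SE). The other 9 enzymes of this arm, Sc5d and Ebp among them, overlapped between subsets. Sqle, which oxidises squalene, was at 0.78, Dhcr7 at 0.43, Nsdhl at 0.28 and the Tm7sf2 locus at 0.26 on the log2 fold change scale. Lss, the cyclase that makes lanosterol, was at -0.20, Cyp51 at -0.21 and Hsd17b7 at -0.40. The Tm7sf2 locus also holds Vps51 and Zfpl1, so its value is not that of 1 gene.

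Some synthesis enzymes varied widely between the PLZF- pools. The PLZF- libraries differed 5.19-fold for Lss, 5.06-fold for Idi1, 4.61-fold for Sqle and 4.34-fold for Fdps. Sqle rested on 3 estimated reads in B6, and Idi1 on 5 in A6. Summed per length over the 17 enzymes without the Tm7sf2 locus, the level was 184 and 191 FPKM in the PLZF- pools, against 158 and 177 FPKM in the PLZF+ pools. Both PLZF+ sums were below both PLZF- sums, and the sums were not tested.

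Of the 5 SREBP control genes 0 were called. Insig2, which holds Scap in the endoplasmic reticulum (chr1:121304353-121332703), had 28.7 and 61.0 normalized counts in the PLZF- pools, against 12.4 and 21.2 in the PLZF+ pools. The PLZF+ values were the lower, at a log2 fold change of -1.31 ± 0.65 (SE; limma adjusted p = 0.283). Its paralog Insig1, itself an SREBP target, had 38.8 and 53.7 in the PLZF- pools, against 22.3 and 57.5 in the PLZF+ pools, with the PLZF- values between those of PLZF+. The ratio of Insig1 to Insig2 in FPKM was 1.18 and 0.665 in the PLZF- pools, against 1.08 and 2.18 in the PLZF+ pools, so the balance of the paralogs overlapped.

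Scap, the escort of the SREBP precursors, had 33.7 and 43.9 normalized counts in the PLZF- pools, against 77.6 and 58.6 in the PLZF+ pools. The PLZF+ values were the higher, at a log2 fold change of 0.79 ± 0.47 (SE; limma adjusted p = 0.380). Srebf2, the SREBP that mainly drives cholesterol genes, had 105 and 144 in the PLZF- pools, against 225 and 119 in the PLZF+ pools. A7 was the high library and B7 lay between the PLZF- values, with a difference of 0.41 ± 0.37 (limma adjusted p = 0.582). Srebf1, which mainly drives fatty acid genes, had 127 and 56.6 in the PLZF- pools, against 90.4 and 109 in the PLZF+ pools. The ratio of Srebf2 to Srebf1 in FPKM was 0.932 and 2.47 in the PLZF- pools, against 2.53 and 1.17 in the PLZF+ pools, with 1 high and 1 low library in each subset.

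Transport and storage had 0 of its 4 genes called. Soat1, which esterifies cholesterol for storage in droplets (chr1:156424538-156474328), had 319 and 178 normalized counts in the PLZF- pools, against 139 and 124 in the PLZF+ pools. Both PLZF+ values were the lower, A6 was the highest, and the log2 fold change was -0.85 ± 0.33 (SE), with an interval of -1.57 to -0.14. The unadjusted p was 0.023 and the adjusted p 0.165 (limma), and the log2 fold change was -0.44 without A6 and -1.27 without B6. Stard4, which moves sterol between membranes, had 57.4 and 74.4 in the PLZF- pools, against 97.9 and 126 in the PLZF+ pools. The PLZF+ values were the higher, at 0.76 ± 0.39 (limma adjusted p = 0.297).

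Npc1 and Npc2 hand cholesterol out of the lysosome, Npc2 in the lumen and Npc1 in its membrane. Npc1 had 98.3 and 87.0 normalized counts in the PLZF- pools, against 35.5 and 80.4 in the PLZF+ pools, a log2 fold change of -0.78 ± 0.46 (SE; limma adjusted p = 0.384). A7 was far below the other 3 libraries, and B7 was just below B6. Npc2 had 231 and 168 in the PLZF- pools, against 247 and 286 in the PLZF+ pools, at 0.43 ± 0.27 (limma adjusted p = 0.421). In FPKM the ratio of Npc2 to Npc1 was 4.69 and 3.18 in the PLZF- pools, against 11.5 and 5.86 in the PLZF+ pools. The ratio of Soat1 to Stard4 was 5.73 and 2.56 in the PLZF- pools, against 1.77 and 0.942 in the PLZF+ pools. Neither ratio overlapped between subsets, and neither was tested, because both were chosen with these values known.

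Levels per length, as mean FPKM of a subset, had a different order in each. In PLZF- cells Soat1 was highest at 55.0 FPKM, followed by Npc2 at 37.3 and Sc5d at 35.5 FPKM. The libraries of Soat1 there spanned 33.8 to 76.3 FPKM, so its place above Npc2 is not resolved. In PLZF+ cells Npc2 was highest at 49.4 FPKM, followed by the Tm7sf2 locus at 37.3 and Ebp at 28.8 FPKM, and Soat1 stood at 23.6 FPKM. At the low end in PLZF- cells were Sqle at 2.34, Fdft1 at 2.67 and Abca1 at 3.59 FPKM. In PLZF+ cells Abca1 was lowest, with 0.136 FPKM in A7 and 0 in B7.

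Efflux and LXR target genes held the largest differences of the 30. Abca1 (chr4:53030789-53159895) had 79.3 and 51.2 normalized counts in the PLZF- pools, against 2.48 and 0 in the PLZF+ pools. Those values stood for 47, 42, 4 and 0 estimated reads. Both PLZF+ libraries were far below both PLZF- libraries although they were the deeper. The log2 fold change was -5.12 ± 1.08 (SE), with an interval of -7.48 to -2.76 and an adjusted p of 0.0121 (limma). From 89 reads against 4, scaled by the value of 1 read in each library, the level was 53.7-fold higher in PLZF- cells, with an exact 95% interval of 20.2 to 201 that covers counting error only. In bulk samples, fewer cells that express a gene and less of its RNA per cell cannot be told apart.

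The call of Abca1 did not hold in every setting: its adjusted p was 0.221 without A6, 0.102 without B6, 0.056 with a pseudocount of 0.25, 0.137 on the FPKM table and 0.106 with voom on estimated reads. The log2 fold change was -6.28 to -3.67 over all settings in which it was tested, and the authors' deposited table marks it as not tested, with Fdft1 and Sqle.

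Mylip, an LXR target that marks lipoprotein receptors for degradation (chr13:45389742-45411940), had 47.2 and 130 normalized counts in the PLZF- pools, against 16.1 and 22.3 in the PLZF+ pools. The subsets did not overlap, B6 was the highest library, and the log2 fold change was -2.0 ± 0.60 (SE; interval -3.29 to -0.70). The unadjusted p was 0.0057 and the adjusted p 0.068 (limma). It passed in 3 of 14 alternatives, at 0.018 with voom on estimated reads, at 0.045 with a pseudocount of 4 and at 0.0068 with the column letter as a term. It did not pass in the other 11, where the adjusted p reached 0.416 without A7, and the log2 fold change was -2.72 without A6 and -1.27 without B6. Its q-value in the authors' deposited table was 0.0588. That table called 0 of the 30 genes at the same threshold, but Abca1, Fdft1 and Sqle were not tested there. It called 5.73% of the 9226 loci it tested, in either direction.

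Abcg1, the exporter that passes cholesterol to mature HDL, was not called. It had 65.8 and 107 normalized counts in the PLZF- pools, against 74.9 and 78.1 in the PLZF+ pools, and both PLZF+ values lay between the PLZF- values. The log2 fold change was -0.13 ± 0.41 (SE), with an interval of -1.02 to 0.75 (limma adjusted p = 0.888). In FPKM, Abca1 stood at 0.667 and 0.248 of the level of Abcg1 in PLZF- libraries and at 0.0183 and 0 in PLZF+ libraries. The 3 genes, all switched on by LXR in textbook accounts, thus had log2 fold changes of -5.12, -2.0 and -0.13.

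**Figure D3:**
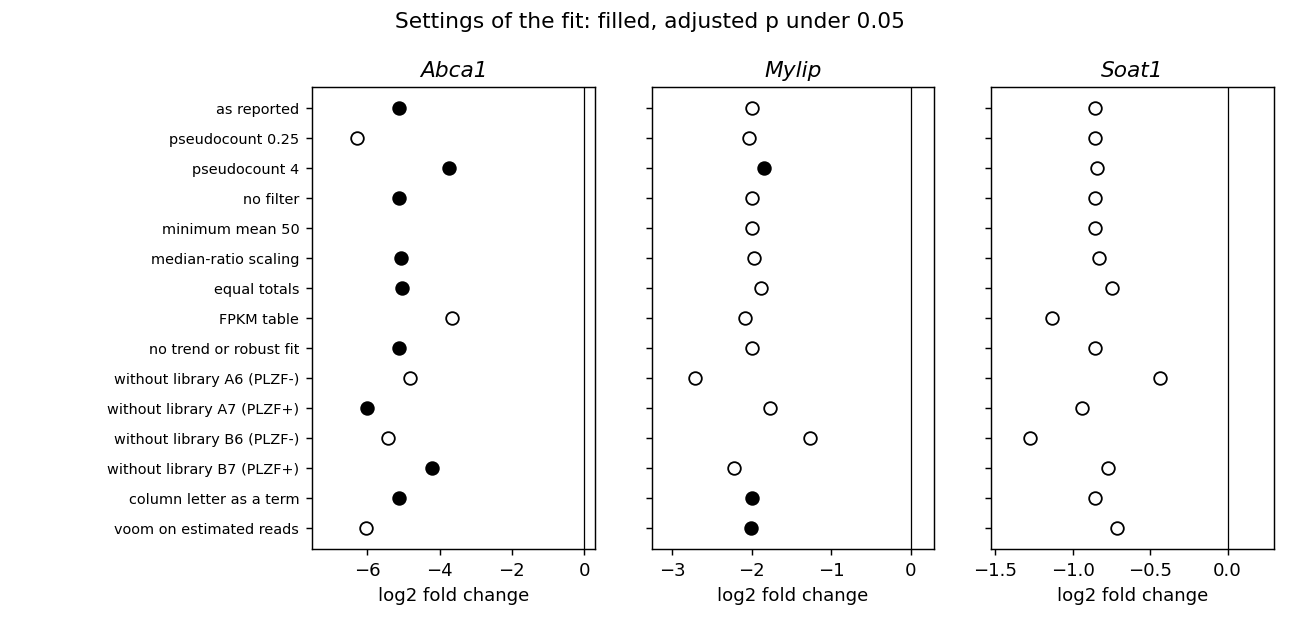
The log2 fold change of Abca1, Mylip and Soat1 as reported and under each alternative, filled where the adjusted p was under 0.05 and with no point where the gene was not tested. All points lie below 0, Abca1 passed in some settings and not in others, and Soat1 passed in none.

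The marker lists of other cell types did not all differ between subsets in the direction of Abca1. The sums for natural killer and innate lymphoid cells and for dendritic cells and MHC class II, given above, were higher in both PLZF- libraries. Whether other cells contributed to the Abca1, Mylip and Soat1 values was not tested. Macrophages are known for high Abca1, and their list summed to 97.8 and 139 normalized counts in the PLZF- pools, against 34.7 and 75.9 in the PLZF+ pools. Of its 17 loci, 10 were at 0 in all 4 libraries, among them C1qa, C1qb, C1qc, Mrc1 and Mertk, and 0 of the 2 tested were called. The 2 tested were Ctss, at 57.4 and 64.6 against 12.4 and 31.8, and Cd36, at 18.6 and 32.9 against 14.9 and 43.5. Lyz2, not tested, had 20.2 and 6.10 against 1.24 and 0. Cd68 was above 0 only in B6, at 22.0, and Csf1r only in B7, at 0.558. Adipocyte markers summed to 40.5 and 58.5 against 19.2 and 7.25 normalized counts, with Adipoq and Plin1 at 0 in all libraries. Markers of αβ T cells summed to 60.7 and 34.1 against 53.9 and 16.2, of which Cd5, which γδ T cells also express, made 33.7 and 11.0 against 52.6 and 16.2. Cd4, Cd8a and Cd8b1 were above 0 in both PLZF- libraries, at 1.22 to 14.6 normalized counts, and at 0 in both PLZF+ libraries. B cell markers summed to 5.06 and 7.32 against 34.7 and 30.1, and those of stromal and endothelial cells to 113 and 117 against 182 and 156.

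**Figure D4:**
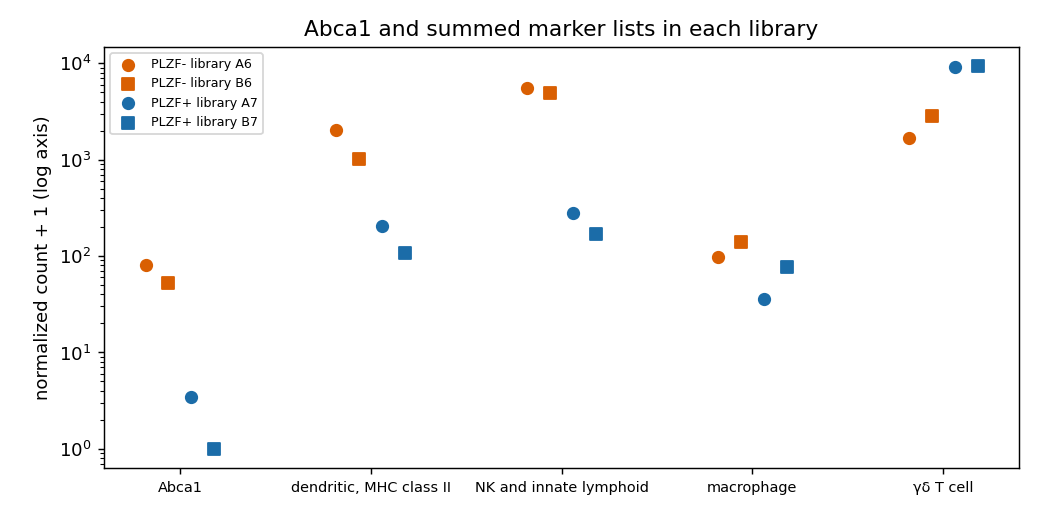
Normalized count plus 1 (log axis) of Abca1 and of the summed marker lists of dendritic, natural killer and innate lymphoid, macrophage and γδ T cells in each library. Abca1 and the natural killer and innate lymphoid sum are high in the same PLZF- libraries, and the γδ T cell sum is high in the PLZF+ libraries.

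Beyond the 30, the related pathways had 67 of 83 listed genes tested, with 1 higher, 1 lower and a median log2 fold change of -0.06. Of 12 tested genes of sterol sensing and SREBP processing 0 were called. The smallest p was that of Erlin1, a scaffold in the degradation of sterol-regulated proteins, at 48.9 and 31.7 normalized counts in the PLZF- pools against 14.9 and 16.2 in the PLZF+ pools (log2 fold change -1.29). Sec24d, of the COPII coat that carries Scap, had 33.7 and 53.7 in the PLZF- pools, against 102 and 61.9 in the PLZF+ pools (log2 fold change 0.88). Sec23a, of the same coat, had 74.2 and 67.1 in the PLZF- pools, against 40.3 and 38.5 in the PLZF+ pools (log2 fold change -0.83). The coat genes thus lay on opposite sides of 0, and neither passed.

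Of 8 tested genes of LXR and oxysterols 0 were called. Nr1h2, which encodes LXRβ, had 118 and 110 normalized counts in the PLZF- pools, against 119 and 91 in the PLZF+ pools, while Nr1h3, which encodes LXRα, was listed at 0 in all 4. Ch25h and Cyp7b1, which make and break down 25-hydroxycholesterol, were also listed at 0. Ncoa1, a coactivator of nuclear receptors, had 84.4 and 69.5 in the PLZF- pools, against 57.0 and 24.6 in the PLZF+ pools (log2 fold change -1.01, limma adjusted p = 0.294). Gpr183, the oxysterol receptor that guides lymphocytes, had 289 and 356 in the PLZF- pools, against 472 and 463 in the PLZF+ pools (log2 fold change 0.54, limma adjusted p = 0.200).

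Osbpl9, an oxysterol-binding protein homolog, was the 1 gene called of 18 tested in lipoprotein and lysosomal cholesterol handling, and it was higher in PLZF+ cells. It had 189 and 290 normalized counts in the PLZF- pools, against 567 and 580 in the PLZF+ pools, a log2 fold change of 1.29 ± 0.25 (SE; limma adjusted p = 0.0079). The call was lost in 6 of 14 alternatives: without A6 (0.074), A7 (0.157) or B7 (0.192), with no filter (0.051), on the FPKM table (0.059) and without trend or robust moderation (0.224). Over all of them its log2 fold change was 0.98 to 1.60. Gramd1a, which moves cholesterol from the plasma membrane, had 177 and 110 in the PLZF- pools, against 59.5 and 43.5 in the PLZF+ pools (log2 fold change -1.44, limma adjusted p = 0.054). Gramd1a passed in 4 of 14 alternatives, at 0.0066 with the column letter as a term, 0.026 with a minimum mean of 50, 0.031 with voom and 0.038 with a pseudocount of 4, and its adjusted p reached 0.395 without B7. Scarb2, a lysosomal membrane protein, had 125 and 79.3 in the PLZF- pools, against 40.3 and 54.1 in the PLZF+ pools (log2 fold change -1.08, limma adjusted p = 0.185).

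The isoprenoid branch, which uses the products of Fdps, had 0 of 16 genes called. Fntb, the β subunit of farnesyltransferase, had 11.8 and 24.4 normalized counts in the PLZF- pools, against 41.5 and 56.4 in the PLZF+ pools (log2 fold change 1.45, limma adjusted p = 0.202). In FPKM the subsets of Fntb overlapped, at 10.5 and 13.3 against 12.7 and 19.2, and the log2 fold change on that table was 0.40. Icmt, which methylates prenylated proteins, had 23.6 and 63.4 normalized counts in the PLZF- pools, against 137 and 55.8 in the PLZF+ pools. Its subsets overlapped, and the log2 fold change of 1.15 was 0.46 without A6, 0.51 without A7, 1.85 without B6 and 1.79 without B7. Pdss1, which makes the tail of ubiquinone, had 0 and 13.6 in the PLZF- pools, against 16.8 and 31.9 in the PLZF+ pools. Its log2 fold change of 2.67 (limma adjusted p = 0.298) rested on the 0 in A6, being 0.73 without A6 and 4.60 without B6.

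Fatty acid synthesis, driven by SREBP1, had 1 of 13 tested genes called. Elovl5, which lengthens polyunsaturated fatty acids, was lower in PLZF+ cells, at 901 and 612 normalized counts in the PLZF- pools against 268 and 272 in the PLZF+ pools. Its log2 fold change was -1.46 ± 0.24 (SE; limma adjusted p = 0.0023), and the call was lost in 4 of 14 alternatives: without A6 (0.056), A7 (0.073) or B7 (0.087) and without trend or robust moderation (0.175). Over all of them its log2 fold change was -1.74 to -1.18. Acaca, the carboxylase that commits acetyl-CoA to this route, had 40.5 and 37.8 in the PLZF- pools, against 83.6 and 107 in the PLZF+ pools (log2 fold change 1.25, limma adjusted p = 0.116). On the FPKM table the log2 fold change of Acaca was 0.06, with 17.2 and 2.38 FPKM in the PLZF- pools against 6.49 and 7.11 FPKM in the PLZF+ pools, so its arithmetic means (9.79 against 6.80 FPKM) run the other way there. Scd2, a desaturase, had 0 and 19.5 normalized counts in the PLZF- pools, against 22.3 and 26.8 in the PLZF+ pools. Its log2 fold change of 2.49 (limma adjusted p = 0.334) was 0.31 without A6 and 4.67 without B6.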

How the data were processed

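Per the submitters' processing notes, the tools were Cuffdiff, Cufflinks 1.2, SAMtools 1.2 and HISAT 0.1.6, and the build was mm10. Neither annotation nor strandedness is stated in the labels, so overlapping and antisense genes may share reads. The authors deposited normalized counts (a signal, estimated reads scaled by library) and FPKM. They also deposited a Cuffdiff table of 46799 loci, from which the p-value and q-value columns were read. Its conditions are named q1 and q2, which no label ties to a subset, so its group values and fold changes were not used and no direction was taken from it.

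The 30 genes and all lists were chosen with earlier results of these data known. Loci were named by deposited symbol or RefSeq synonym, and those of one name that overlap were added up. Low values are multiples of the value of 1 read (0.558 to 1.69 normalized counts), which gave the estimated reads, and 92.9% to 94.6% of values lay near whole reads (tolerance 0.05). Rn45s, which made 26.8% of A6, 33.2% of B6, 28.1% of A7 and 0% of B7, was left out.

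Genes with a mean of at least 10 normalized counts, 9279 in all, entered limma 3.58.1 in R 4.3.3 with trend and robust moderation. The two-sided test used log2 of the normalized count with a pseudocount of 1, which understates changes of low genes. P-values were adjusted by Benjamini-Hochberg over all genes tested, and 0.05 was the threshold. Values per library are given for genes that passed and for the 3 with the smallest p in each role group or list, with a few more chosen after their values were seen. Some genes that this rule names are not reported here. Ebi3, a cytokine subunit, stood in the LXR list by mistake and was not tested. Alternatives were the pseudocount, filter, scaling, moderation, table, column letter, libraries left out, the authors' q-values and, chosen after seeing the data, voom on estimated reads. The scripts were tested on simulated data.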

Additional observations from a re-analysis of the deposited data

How the results depend on the processing

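No gene of the 30 was called higher in PLZF+ cells in any setting run. The 1 called lower became 0 with a pseudocount of 0.25 and on the FPKM table, and was lost with some libraries left out. It became 2 with a pseudocount of 4 and with the column letter as a term. The count was also 0 with a minimum mean of 50 and by the authors' Cuffdiff q-values, but Abca1 was not tested in either. Over all genes, 229 higher and 462 lower became 109 and 272 with no filter, 128 and 281 on the FPKM table, and 28 and 184 without trend or robust moderation. With the column letter as a term 426 were higher and 693 lower. Without A6, A7, B6 or B7, 99, 29, 238 or 20 were higher and 98, 266, 220 or 204 lower. The authors' q-values give no count by direction, because that table's conditions are tied to no subset. Equal totals moved the median log2 fold change of all genes from -0.03 to 0.08.

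Of 404 alternative log2 fold changes of the 30 genes, 374 kept direction and side of the threshold and 22 changed sign, in 14 of the 30 genes. All sign changes came with a library left out, except Lss under voom (0.14). The ranges with a library left out were -0.48 to 0.21 for Abcg1, -0.49 to 0.068 (0.053 without A7) for Cyp51, -0.15 (-0.0082 without A6) to 1.01 for Dhcr7, -0.18 to 1.83 for Fdps, -1.34 to 0.87 (0.13 without A7) for Idi1, -1.0 to 0.33 for Insig1 and -1.33 to 0.93 (0.12 without A7) for Lss. They were -0.98 to 0.28 (0.019 without A6) for Mvd, -0.20 to 0.77 for Nsdhl, -0.94 to 0.29 (0.17 without A7) for Pmvk, -0.19 to 1.75 for Sqle, -0.34 to 0.80 for Srebf1, -0.045 to 0.87 for Srebf2 and -0.11 to 0.63 for the Tm7sf2 locus. Nr1h2, outside the 30, ranged from -0.32 to 0.062. The cause was not tested. A library left alone in its subset was assumed to vary like the other subset. No paired analysis was possible because the table columns carry no replicate numbers. The column letter is in no label, so the fit with it as a term is not a fit by known pairs.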
